A study of Mus musculus with 4 samples.

Results

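Transcripts of 32 enzymes and carriers of glycolysis, the pentose phosphate pathway and glycogen metabolism were followed in macrophages sorted from tumours of mice on a high-fat or a control diet. The genes were taken from a list of symbols matched to the Ensembl identifiers of the count table, and all 32 were found among its 53379 identifiers. Of these, 31 had enough reads to be tested. Both groups carried tumours of MC38, a mouse colon carcinoma line, and were sampled 21 days after implantation, with 2 mice per diet. They differed by diet alone in the labels, and no transgene or drug is named. Cells were sorted as positive for CD45, CD11b and F4/80, so they had been chosen by surface protein and not by transcript. The 2 libraries of a diet came from differently numbered mice. The labels do not state the strain, sex and age of the mice, what the diets held and how long they were fed, and the site of the graft.

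Libraries held 34148682 to 37159552 counts. Levels are given as CPM, counts relative to a TMM-scaled library size. A list of 14 macrophage markers summed to 17527 and 18545 CPM on the high-fat diet and to 15921 and 18556 CPM on the control diet, and each of the 14, with the sort markers Ptprc, Itgam and Adgre1 among them, was detected in every library. Some lists of markers of other cells moved with the diet. Neutrophil markers summed to 268 and 276 CPM against 755 and 412 CPM (9 of 15 tested fell), and 12 epithelial markers to 41.9 and 48.6 against 169 and 145 CPM (10 of 11 tested fell). Fibroblast and pericyte markers summed to 2128 and 2113 against 1077 and 807 CPM (8 of 13 rose). Dendritic cell markers summed to 46.8 and 53.3 against 136 and 76.8 CPM (2 of 11 fell, 5 by DESeq2). T and NK cell markers summed to 48.5 and 44.8 against 158 and 40.4 CPM, where control-diet mouse 1 stood apart (1 of 14 rose and 1 fell). Of 6 tested B cell markers 1 rose and 1 fell. For endothelial and red cell markers, 0 of 4 and 0 of 5 tested genes were called. In bulk RNA, fewer cells of a type and less RNA per cell cannot be told apart.

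Glycolysis splits glucose to pyruvate in the cytosol, and hexokinase, phosphofructokinase and pyruvate kinase catalyse its essentially irreversible steps. The pentose phosphate pathway branches off at glucose 6-phosphate and yields NADPH and ribose 5-phosphate, and glycogen phosphorylase releases stored glucose as its phosphate. Macrophages stimulated by bacterial products are known to raise glycolysis and lactate release, and the NADPH of the pentose phosphate branch feeds their oxidative burst. Several of these steps are run by isozymes from separate genes, such as the muscle, liver and brain forms of glycogen phosphorylase.

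The carbohydrate enzymes as a group did not move 1 way with the diet (12 log2 fold changes were above 0 and 19 below), and the genes that fell were single isozymes. Of the 31 tested genes edgeR called 3 lower on the high-fat diet, Pygm, Pfkp and Hk3, beside 7.91% of all 18422 genes tested. None was called higher by edgeR, beside 2.61% of all genes. DESeq2 called 0 of the 31 higher and 4 lower, beside 1075 higher and 1779 lower of all 18422 genes. At an unadjusted edgeR p below 0.05, 2 of the 31 were higher and 5 lower, beside 13.6% and 17.7% of all genes. A call here is a Benjamini-Hochberg adjusted p below 0.05 in edgeR's quasi-likelihood test. The share of calls was thus near that of all genes. The median log2 fold change of the 31 genes was -0.17, beside 0.005 over all genes. In 10 of them both high-fat-diet libraries lay below both control-diet libraries (31.6% of all genes), in 4 they lay above (32.2% of all genes), and in 17 the diets overlapped, so that 14 of 31 were without overlap beside 63.8% of all genes. A fit that leaves out 1 library assumes that the lone library of its diet varies like the pair of the other diet. In such fits, the count of genes called lower was 1 without high-fat-diet mouse 1, where Pygm alone was left, and 2 without high-fat-diet mouse 2, where Pygm and Pfkp were left. Without control-diet mouse 2 it was 5, with Taldo1 and Pygl added. Without control-diet mouse 1 it stayed at 3, and Ldhb was called higher.

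**Figure D1:**
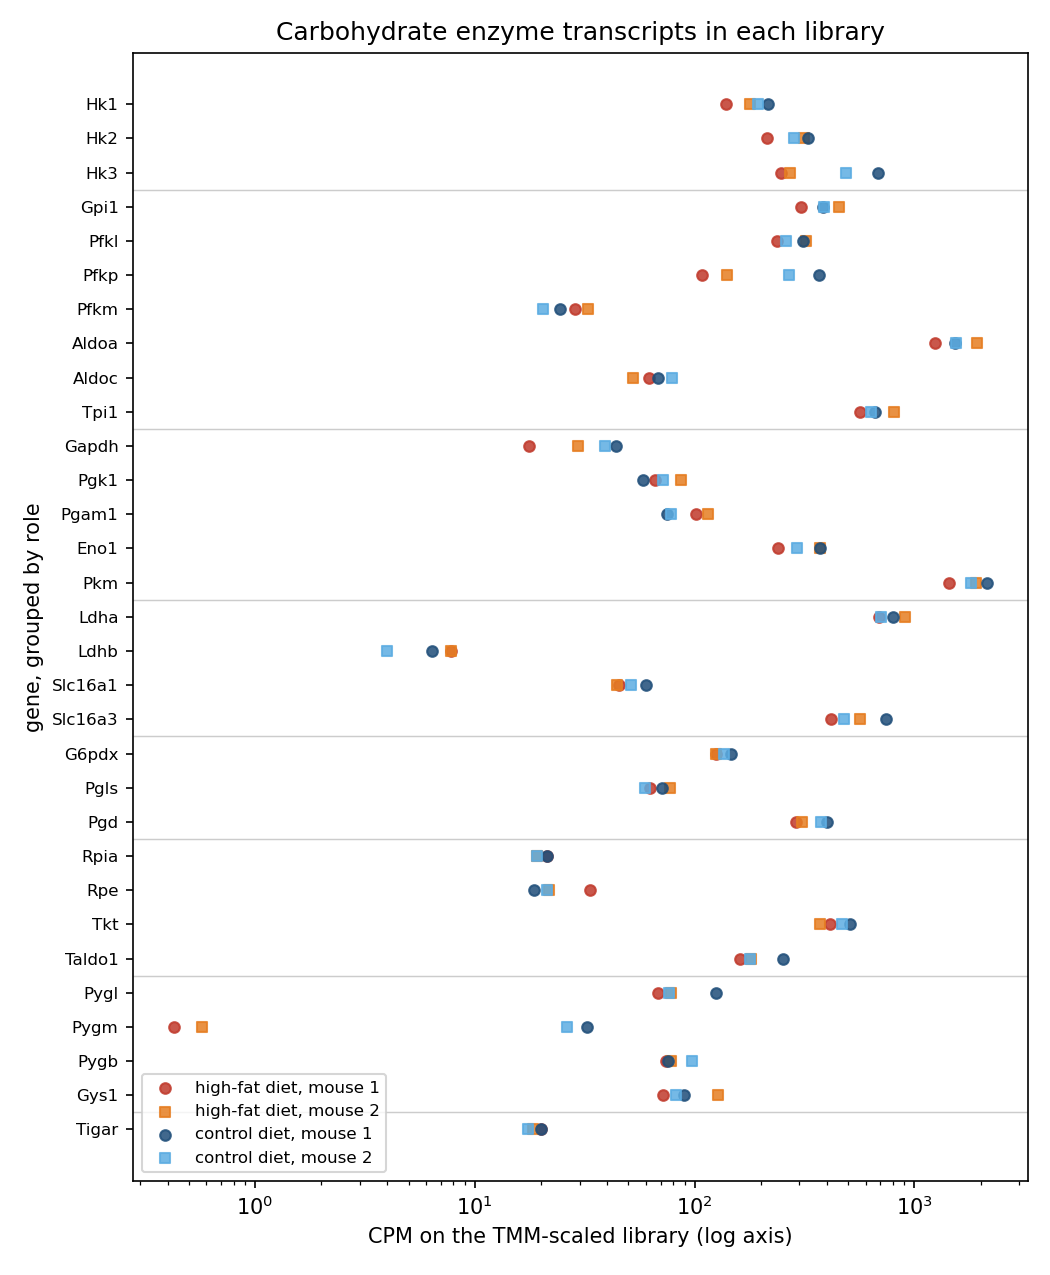
Level of the 31 tested genes in each of the 4 libraries, in CPM on a log axis, with genes grouped by role from the hexokinases at the top to Tigar at the bottom. For Pygm the high-fat-diet libraries (0.427 and 0.573 CPM) lie far to the left of the control-diet libraries (32.3 and 26.4 CPM), while for most genes the points of the diets mix.

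**Figure D2:**
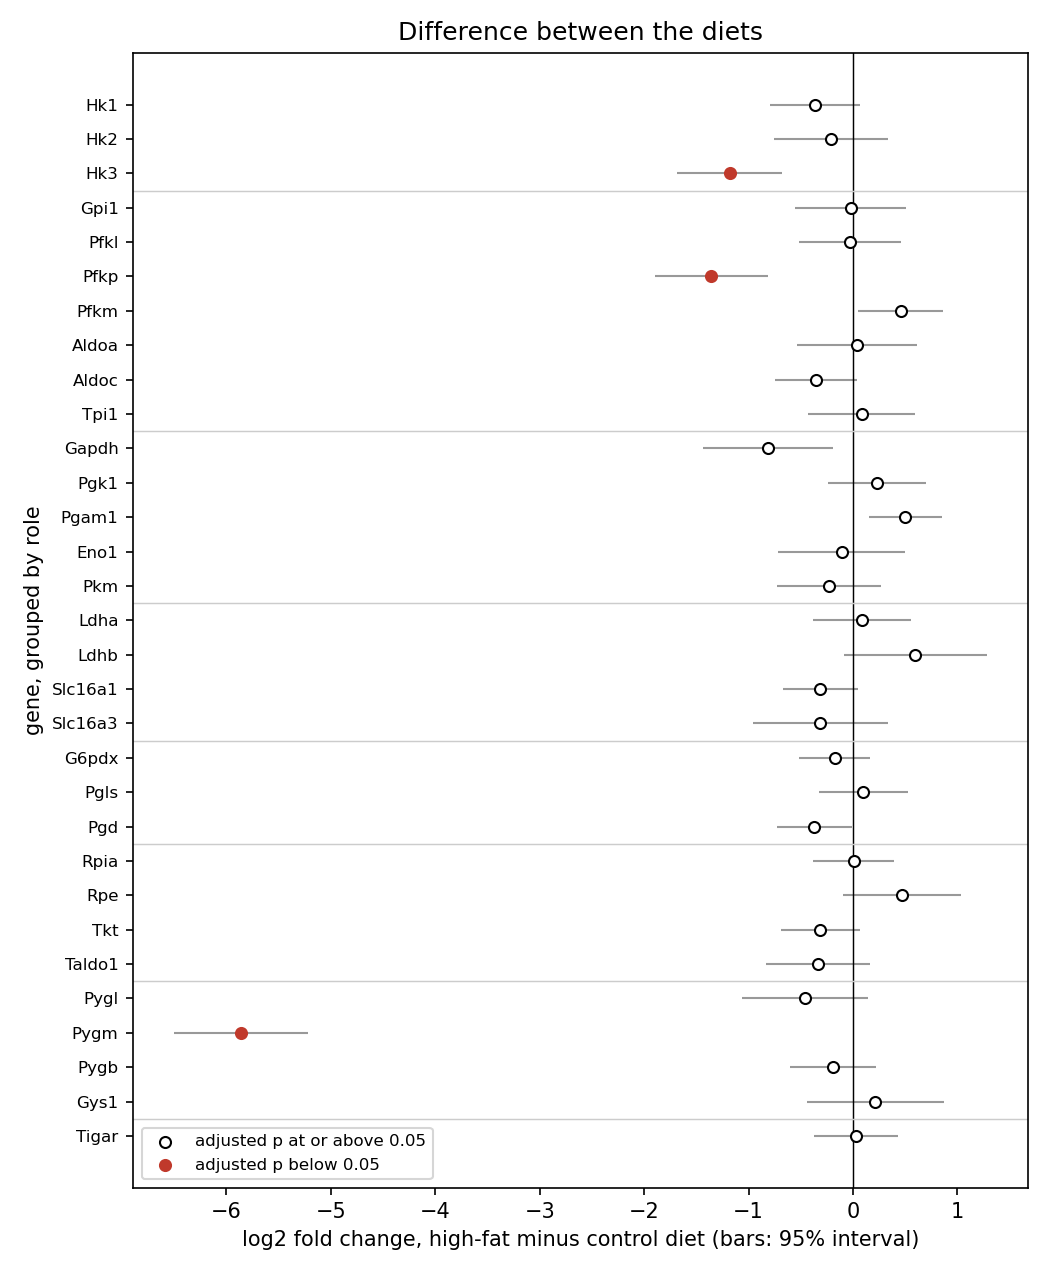
Log2 fold change of the same genes, high-fat minus control diet, with bars for the 95% interval of edgeR's estimate, and filled points for an adjusted p below 0.05. Pygm (-5.86), Pfkp (-1.36) and Hk3 (-1.18) are the filled points, and the other 28 are open.

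Glycogen phosphorylase was the family in which the isozymes parted most. Pygm, the muscle isozyme (ENSMUSG00000032648.14, chromosome 19 from 6384399 to 6398459, plus strand, GRCm38), had 16 and 22 counts on the high-fat diet and 1048 and 982 on the control diet. As levels these were 0.427 and 0.573 against 32.3 and 26.4 CPM. The diets were far apart and the mice of a diet close together, and the log2 fold change was -5.86 (SE 0.26, edgeR adjusted p = 0.00416). The call held in each of the 4 fits that left out 1 library, with a log2 fold change between -6.07 and -5.65. Pygl, the liver isozyme that leukocytes also express, had 68.3 and 77.9 against 125 and 76.3 CPM (log2 fold change -0.46, SE 0.25, adjusted p = 0.254). Control-diet mouse 1 stood above the other 3 libraries for Pygl, and without control-diet mouse 2 the gene was called lower (log2 fold change -0.77, adjusted p = 0.0155). Pygb, the brain isozyme, had 73.7 and 78.5 against 75.9 and 97.5 CPM (adjusted p = 0.484), with the diets overlapping.

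Per kilobase of exon, Pygm made up 0.523 and 0.641% of the 3 phosphorylases on the high-fat diet and 22.9 and 20.8% on the control diet. Here and below, the length is that of all annotated exons of a gene joined, not of 1 mRNA. Levels per kilobase and shares between isozymes thus depend on the annotation. Pygl made up 39.0 and 40.7% against 41.2 and 27.98%, and Pygb 60.4 and 58.7% against 35.9 and 51.3%. The summed level of the family was 25.4 and 27.8 against 43.9 and 39.5 CPM per kilobase. Gys1, the glycogen synthase of non-liver tissues, had 71.8 and 127 against 89.5 and 82.3 CPM (adjusted p = 0.626). Its high-fat-diet mice lay on either side of both control-diet mice.

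Pygm is best known from skeletal muscle. The 19 skeletal muscle markers summed to 9.37 and 10.7 CPM on the high-fat diet and 18.7 and 13.7 CPM on the control diet. Tnnc2 and Pvalb were at 0 counts in every library. Of 10 tested markers edgeR called 4 lower and 0 higher, beside 7.91% and 2.61% of all genes (median log2 fold change -0.80). At an unadjusted p below 0.05, 3 were higher and 4 lower, beside 13.6% and 17.7% of all genes. Ckm, the muscle creatine kinase, had at most 0.134 CPM in any library. The part of muscle RNA in the Pygm value was not tested.

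Pygm lies 6.37 kb past the 3' end of Sf1, a splicing factor gene on the same strand, with 0 annotated genes wholly between them. Sf1 had 347 and 362 against 437 and 393 CPM (log2 fold change -0.23, SE 0.15, adjusted p = 0.347). Rasgrp2, chosen after its values were seen, starts 0.881 kb past the end of Pygm and had 1.60 and 1.88 against 30.4 and 6.29 CPM (log2 fold change -3.39, adjusted p = 0.0405). Its control-diet mice differed more than those of Pygm. Rasgrp2 was not called without high-fat-diet mouse 1 (adjusted p = 0.472), without high-fat-diet mouse 2 (0.346) and with no filter on low counts (0.29), and its log2 fold change was -1.85 with control-diet mouse 1 left out and -4.12 with mouse 2 of that diet left out. Among all genes tested, 1990 with an average log2 CPM below 5 start within 30 kb past an expressed gene on the same strand, and 18.1% of these were called lower. Of the 10381 other genes below that level, 6.94% were. Without the limit on the level, the shares were 13.6% of 3198 genes and 6.70% of 15208. The part of this position in the Pygm value was not tested.

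Phosphofructokinase, which commits fructose 6-phosphate to glycolysis, showed a like split between isozymes. Pfkp, the platelet isozyme (ENSMUSG00000021196.14, chromosome 13 from 6579768 to 6648777, minus strand), had 108 and 141 against 369 and 270 CPM. Both high-fat-diet mice were below both control-diet mice, with a log2 fold change of -1.36 (SE 0.22, edgeR adjusted p = 0.0239). Leaving out high-fat-diet mouse 1 ended that call, with a log2 fold change of -1.16 (adjusted p = 0.0989). Pfkl, the liver isozyme, had 237 and 321 against 311 and 259 CPM (adjusted p = 0.937), and its 95% interval ran from 0.698-fold to 1.38-fold. Pfkm, the muscle isozyme, had 28.6 and 32.8 against 24.4 and 20.4 CPM, 0.46 higher on the log2 scale (SE 0.17, adjusted p = 0.128). The diets did not overlap for Pfkm, but the difference did not pass the test. Per kilobase of exon Pfkp made up 15.5 and 15.4% of the 3 isozymes on the high-fat diet and 33.9 and 30.9% on the control diet, and Pfkl 68.1 and 70.3% against 57.2 and 59.7%.

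Hexokinase traps glucose in the cell by phosphorylation, and Hk3 was the most abundant of Hk1, Hk2 and Hk3 per kilobase of annotated exon. Hk3, an isozyme typical of myeloid cells (ENSMUSG00000025877.14, chromosome 13 from 55005985 to 55021385, minus strand), had 247 and 271 against 686 and 488 CPM. The high-fat-diet mice lay together below both control-diet mice (log2 fold change -1.18, SE 0.21, edgeR adjusted p = 0.0279). Hk3 was not called without high-fat-diet mouse 1 (log2 fold change -1.10, adjusted p = 0.131) or without mouse 2 of that diet (-1.23, adjusted p = 0.0903). Hk1, the form bound to mitochondria in most tissues, had 140 and 179 against 216 and 194 CPM (adjusted p = 0.219). Hk2, the inducible form, had 213 and 316 against 330 and 282 CPM (adjusted p = 0.557). As shares per kilobase of exon, Hk3 held 56.3 and 49.9% of the family on the high-fat diet and 69.8 and 65.4% on the control diet. Hk2 held 29.9 and 35.9% against 20.7 and 23.4%, and the family's sum was 119 and 147 against 267 and 202 CPM per kilobase.

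Neutrophils also express Hk3 and Pygl, and the neutrophil markers, whose sums are given above, were lower with the diet (median log2 fold change -3.40, 9 of 15 called). None of the 17 was at 0 in every library, but Ly6g had 0 counts in both high-fat-diet libraries. Within the control diet, the log2 ratio of mouse 2 over mouse 1 had a median of -1.16 over the 15 tested neutrophil markers. The median was -1.45 for dendritic cell markers, -1.86 for T and NK cell markers and 1.88 for epithelial markers. The same ratio was -0.49 for Hk3, -0.45 for Pfkp, -0.29 for Pygm and -0.71 for Pygl. The epithelial and dendritic cell markers summed above were lower with the diet as well. The T and NK cell markers were highest in control-diet mouse 1, as were Hk3, Pfkp, Pygm, Pygl and Taldo1. Other listed genes were also highest there, among them Hk1, Hk2, Pkm and Slc16a3. The part of these marker lists in the values of Hk3, Pfkp, Pygm, Pygl and Taldo1 was not tested. Hk3 lies 6.50 kb past Uimc1, on its strand, whose levels were 34.4 and 34.3 against 35.2 and 35.4 CPM. On the opposite strand Hk3 overlaps Unc5a, which had 361 to 549 counts, and Pfkp overlaps Pitrm1, which had 1025 to 1293 counts. The strand setting of the counting is not given in the sources used here.

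**Figure D3:**
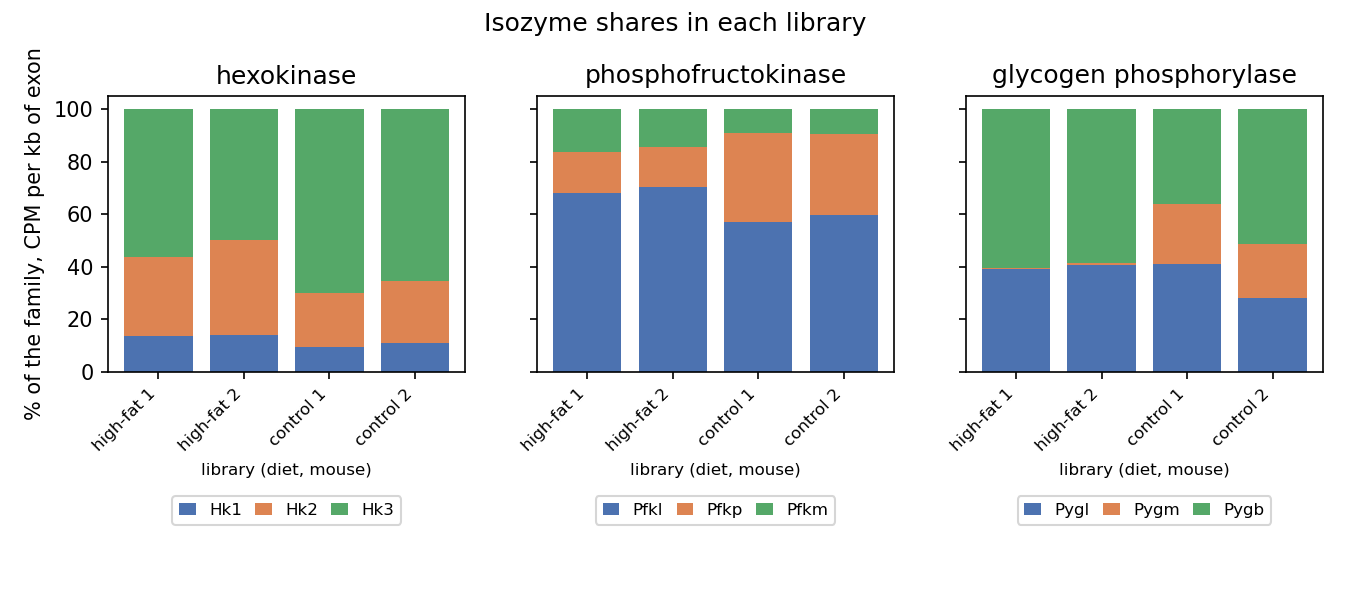
Share of each isozyme in its family per library, in % of the summed CPM per kilobase of exon, for hexokinase, phosphofructokinase and glycogen phosphorylase. In both high-fat-diet libraries the segments of Hk3, Pfkp and Pygm are smaller than in both control-diet libraries, down to 0.523 and 0.641% for Pygm.

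The start regions of the 3 genes that fell are shown because these are the sequences nearest to where their transcription begins. They come from RefSeq (GRCm38.p6) and run 5′ to 3′ on the gene's strand, from 250 bases before to 50 after the annotated start. The first of the RefSeq windows of Ldha, which did not pass the test, stands beside them as a gene known for hypoxia-response elements. Capitals mark ACGTG and GCGTG, the cores of the hypoxia-response element, and AGGAAGT, a core bound by ETS factors such as PU.1, each on either strand. A palindromic CACGTG is counted on both strands.
Pygm, chr19:6384158-6384457, plus strand: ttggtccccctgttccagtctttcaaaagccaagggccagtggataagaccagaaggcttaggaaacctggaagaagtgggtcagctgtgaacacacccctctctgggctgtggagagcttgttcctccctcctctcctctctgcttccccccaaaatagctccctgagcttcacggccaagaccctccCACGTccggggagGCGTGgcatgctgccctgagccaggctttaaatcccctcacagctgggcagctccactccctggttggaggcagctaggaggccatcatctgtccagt
Pfkp, chr13:6648722-6649021, minus strand: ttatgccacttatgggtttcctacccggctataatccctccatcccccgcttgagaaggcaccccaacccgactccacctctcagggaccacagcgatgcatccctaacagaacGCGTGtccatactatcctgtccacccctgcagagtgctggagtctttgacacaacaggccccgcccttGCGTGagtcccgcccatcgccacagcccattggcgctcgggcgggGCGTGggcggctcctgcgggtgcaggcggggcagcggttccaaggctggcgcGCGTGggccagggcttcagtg
Hk3, chr13:55021336-55021635, minus strand: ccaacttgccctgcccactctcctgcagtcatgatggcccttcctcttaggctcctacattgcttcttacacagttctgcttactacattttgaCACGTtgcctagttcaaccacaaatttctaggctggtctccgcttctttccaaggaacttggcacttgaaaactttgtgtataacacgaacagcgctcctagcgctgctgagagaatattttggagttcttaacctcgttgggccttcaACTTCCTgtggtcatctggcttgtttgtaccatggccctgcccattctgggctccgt
Ldha, chr7:46845554-46845853, plus strand: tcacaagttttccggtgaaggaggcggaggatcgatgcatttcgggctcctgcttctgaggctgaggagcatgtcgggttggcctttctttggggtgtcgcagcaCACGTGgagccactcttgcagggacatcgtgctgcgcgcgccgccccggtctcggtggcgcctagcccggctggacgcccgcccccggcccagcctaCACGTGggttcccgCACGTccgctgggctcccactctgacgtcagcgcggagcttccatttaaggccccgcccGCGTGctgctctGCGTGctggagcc

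By script, the window of Pygm held 2 matches to the hypoxia cores, that of Pfkp 4, that of Hk3 1 and the Ldha window shown 7. Another start of Ldha has a window with 2 matches. Of these 4 windows, the one of Hk3 held the only AGGAAGT match. RefSeq windows were found for all 32 genes, 44 windows in all. Of the 44, 75% held ACGTG or GCGTG, against 43.8% of all 32851 windows of this length, and the median GC content was 60.5% against 52.7%. AGGAAGT was in 4 of the 44, against 9.35% of all windows. Such a match is only a run of letters and shows no binding.

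The main glycolytic line, from Gpi1 to Pkm, held 12 genes. For 7 of them the log2 ratio between the high-fat-diet mice was larger in size than that between the diets. A ratio of 2 single mice varies more than a difference between pairs, and the share over all genes was not counted. The 7 are thus not read as a trait of glycolysis. In 11 of the 12 genes high-fat-diet mouse 2 was above high-fat-diet mouse 1, with a median log2 ratio of 0.42, while over all genes tested this held for 47.6%, with a median of -0.02. Within the control diet, mouse 2 was above mouse 1 in 5 of the 12 (median -0.12), beside 50.6% of all genes. Over all 31 tested genes of the list, high-fat-diet mouse 2 was the higher in 24 and control-diet mouse 2 in 7. Aldoa, the aldolase of most tissues, had 1239 and 1925 against 1530 and 1553 CPM (log2 fold change 0.04, SE 0.24, edgeR adjusted p = 0.931). The high-fat-diet mice thus lay on either side of the control-diet mice, and the 95% interval of the diet's effect ran from 0.689-fold to 1.53-fold. Triose phosphate isomerase, Tpi1, showed the same order, with 563 and 809 against 662 and 635 CPM (adjusted p = 0.82). Gpi1, glucose 6-phosphate isomerase, had 304 and 456 against 385 and 388 CPM (adjusted p = 0.952). The pair of control-diet mice was close for all 3 genes. Aldoc, an aldolase best known from brain, went against this order with 62.2 and 52.4 against 67.8 and 78.6 CPM (adjusted p = 0.191).

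Among the later steps, Pkm, pyruvate kinase of most tissues, carries the last step to pyruvate. It had 1441 and 1914 against 2136 and 1800 CPM (log2 fold change -0.23, SE 0.21, edgeR adjusted p = 0.48). Enolase, Eno1, had 239 and 374 against 370 and 291 CPM (adjusted p = 0.798), and phosphoglycerate kinase, Pgk1, had 66.0 and 86.6 against 58.0 and 71.9 CPM (adjusted p = 0.449). The diets overlapped for all of these. Pgam1, phosphoglycerate mutase, had 102 and 115 against 75.0 and 77.8 CPM. Its diets did not overlap, but the log2 fold change of 0.50 (SE 0.14) had an adjusted p of 0.0747. Gapdh, which oxidises glyceraldehyde 3-phosphate, had 17.6 and 29.5 against 44.1 and 39.0 CPM, also without overlap (log2 fold change -0.82, SE 0.26, adjusted p = 0.0912). DESeq2 called Gapdh lower (adjusted p = 0.0336).

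**Figure D4:**
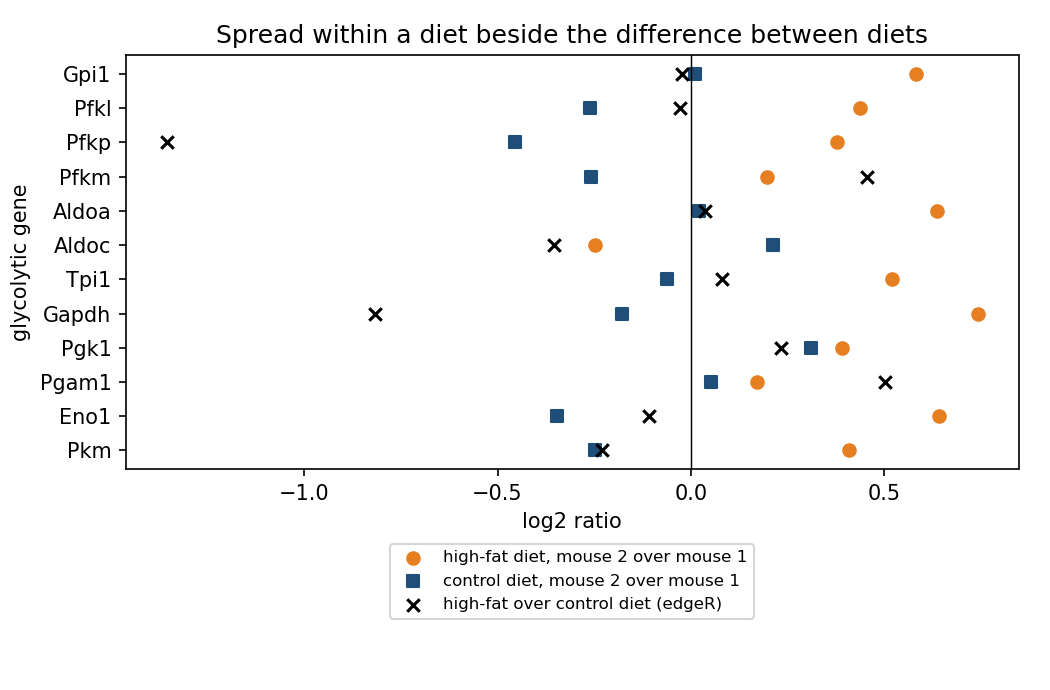
Log2 ratios of 12 glycolytic genes: mouse 2 over mouse 1 within the high-fat diet, mouse 2 over mouse 1 within the control diet, and the edgeR log2 fold change between the diets. The high-fat-diet ratios lie to the right of 0 for 11 genes, and for Aldoa, Gpi1 and Eno1 they exceed the difference between the diets.

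Many of these glycolytic genes have processed pseudogenes, intronless copies of their mRNA, so near in sequence that a read may be counted at either place. Transcripts of annotated processed pseudogenes were assigned to their best match among protein-coding transcripts. The stretches below, from the coding part of each gene's GENCODE transcript and its copy, show how alike they are: capitals mark the bases that differ.
Gpi1, coding bases 666 to 725: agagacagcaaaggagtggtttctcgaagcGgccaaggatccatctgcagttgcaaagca
Gm1840, copy of Gpi1: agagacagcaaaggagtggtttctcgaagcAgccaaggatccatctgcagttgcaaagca
Pkm, coding bases 82 to 141: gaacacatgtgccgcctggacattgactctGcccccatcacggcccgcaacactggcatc
Gm6560, copy of Pkm: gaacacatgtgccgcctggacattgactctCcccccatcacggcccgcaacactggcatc
Pgam1, coding bases 1 to 60: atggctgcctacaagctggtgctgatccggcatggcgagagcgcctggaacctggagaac
Pgam1-ps2, copy of Pgam1: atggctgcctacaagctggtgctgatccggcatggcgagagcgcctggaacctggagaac

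Gm1840 matched Gpi1 at 1032 of 1046 aligned bases, Gm6560 matched Pkm at 1567 of 1593, and Pgam1-ps2 matched Pgam1 at 765 of 765. The copies took large parts of the reads. Gm1840 held 65.2 to 67.6% of the summed counts of Gpi1 and its copy, and the 10 copies of Pkm held 47.6 to 49.6%, nearly all in Gm6560. Copies of Pgam1 held 64.7 to 71.0%, and those of Eno1, mainly Gm4735, 48.0 to 53.1%. The 22 copies of Ldha held 32.4 to 33.0%, with 11.9 to 12.1% in Gm9247 and 10.1 to 10.6% in Gm5452. For other genes, Gm5514 held 33.6 to 40.2% for Ldhb, Gm17823 31.7 to 33.7% for Taldo1, Pgk1-rs7 14.4 to 22.0% for Pgk1 and the copies of Tpi1, mainly Tpi-rs11, 15.7 to 17.2%. For Gapdh, 195 copies were found, of which 107 had reads, and they held 47.9 to 59.2%, with 5.23 to 11.5% in Gm5345. The Gapdh copies did not move alike. Gm8174 (92.6% identity) had 0 and 1 against 94 and 125 counts, and Gm12070 (99.9% identity) 35 and 38 against 26 and 30. Both were chosen after their values were seen, and all copies enter the summed Gapdh level below. The copies of Aldoa held only 3.35 to 3.57%. The share of the copies was higher in both high-fat-diet libraries for Gapdh (59.2 and 53.7 against 47.9 and 50.1%). For Pgam1 it was lower in both (64.7 and 66.7 against 71.0 and 69.5%). The coding gene Eno1b, a near copy of Eno1, had 116 to 151 CPM and was not called (adjusted p = 0.725). Gm49759, an unclassified transcript annotated within Pkm on the same strand, had 2475 to 3701 counts.

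Adding the copies to their genes left the same 3 genes called lower. The summed level of Gapdh was 43.2 and 63.7 against 84.6 and 78.1 CPM (log2 fold change -0.61, SE 0.21, edgeR adjusted p = 0.113). That of Pgam1 was 288 and 344 against 258 and 255 CPM, where the log2 fold change of 0.30 (SE 0.16, adjusted p = 0.251) was smaller than that of Pgam1 alone. Gpi1 summed to 938 and 1311 against 1140 and 1198 CPM (adjusted p = 0.874), and Pkm to 2771 and 3651 against 4125 and 3575 CPM (adjusted p = 0.415). With the copies added, the diets still did not overlap for Gapdh and Pgam1 and still overlapped for Gpi1 and Pkm. Gapdh is commonly one of the most abundant mRNAs of a cell, but its mean level here was 5.70 and 10.05 CPM per kilobase, below Pgk1 at 34.02 and 28.96. How reads with several equally good positions were counted is not given in the sources used here, so the level of Gapdh is not read as that of its mRNA.

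**Figure D5:**
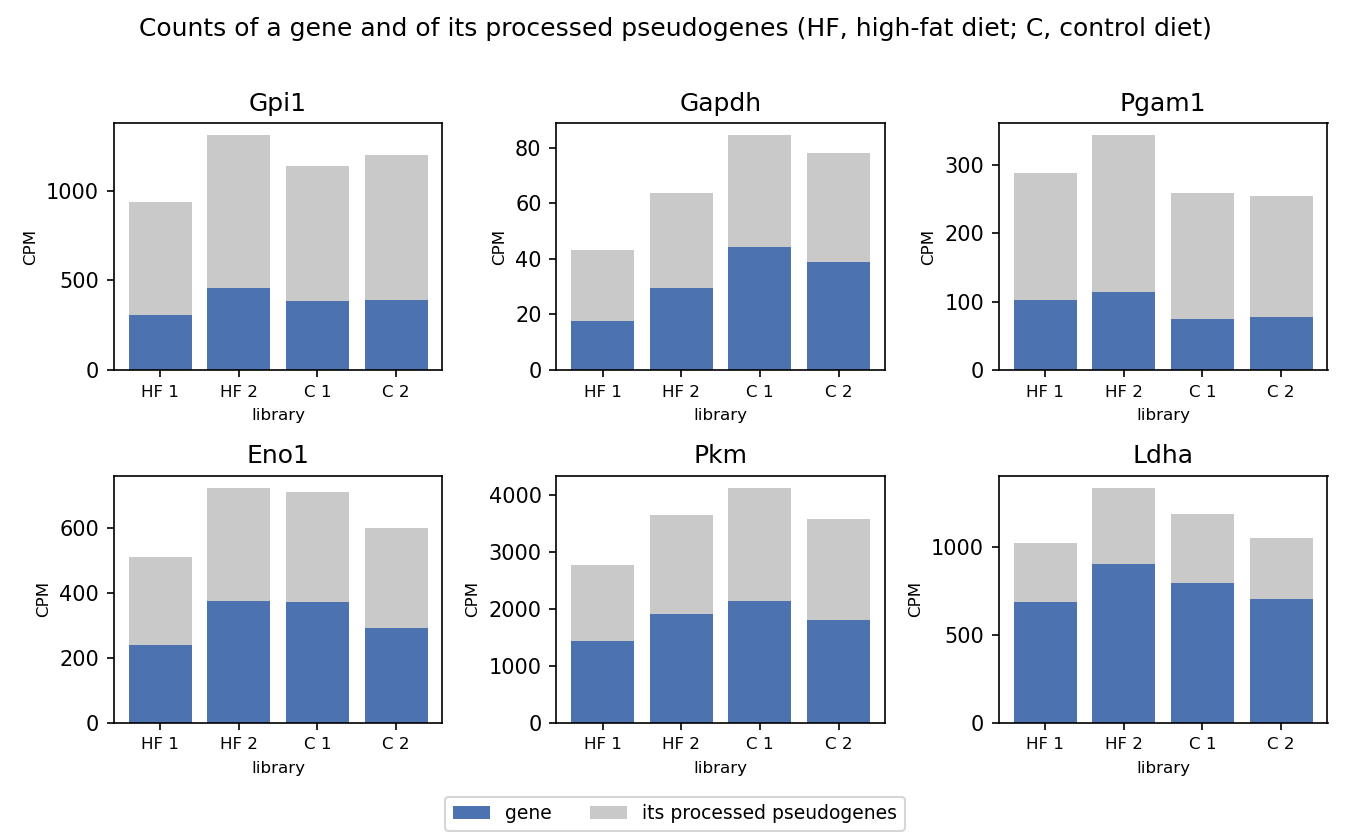
Stacked bars of CPM per library for 6 genes (blue) and for the sum of their processed pseudogenes (grey), each panel with its own axis from 0. The grey part makes up 65.2 to 67.6% for Gpi1 and 32.4 to 33.0% for Ldha, alike in the libraries of both diets. For Gapdh it makes up 59.2 and 53.7% on the high-fat diet against 47.9 and 50.1% on the control diet. For Pgam1 these shares are 64.7 and 66.7% against 71.0 and 69.5%.

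Lactate genes did not pass the test in either direction, with 0 of 4 called by edgeR, beside 10.5% of all genes. DESeq2 called 0 of them, beside 1075 higher and 1779 lower of all 18422 genes. At an unadjusted edgeR p below 0.05 there were 0, beside 13.6% of all genes higher and 17.7% lower. A list of 4 is too short to set 0 calls apart from such shares. Ldha, the lactate dehydrogenase subunit that predominates in glycolytic cells, had 688 and 905 against 796 and 705 CPM (adjusted p = 0.791, 95% interval 0.767-fold to 1.47-fold). Ldhb, the heart subunit, had 7.82 and 7.82 against 6.38 and 3.98 CPM. Per kilobase its mean of 4.98 and 3.30 CPM was below that of every other glycolytic and lactate gene of the list. Both high-fat-diet mice were above the control-diet mice for Ldhb (log2 fold change 0.60, SE 0.28, adjusted p = 0.204), and without control-diet mouse 1 it was called higher (0.98, adjusted p = 0.0415). The lactate exporter gene Slc16a3 had 415 and 569 against 744 and 479 CPM (adjusted p = 0.455) and made up 88.4 to 91.4% of the 2 monocarboxylate carriers per kilobase of exon. Slc16a1 had 45.2 and 44.4 against 59.96 and 51.2 CPM (log2 fold change -0.31, SE 0.15, adjusted p = 0.202). Its diets did not overlap. Gm43581, an annotated transcript inside an intron of Slc16a1, had 2 and 2 against 52 and 36 counts, few beside the 1691 to 1945 counts at Slc16a1 itself.

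Of the 7 genes of the pentose phosphate pathway, 0 were called by edgeR, beside 10.5% of all genes. DESeq2 called 0 of these, beside 1075 higher and 1779 lower of all 18422 genes. At an unadjusted edgeR p below 0.05, 0 were higher and 1 gene was lower, beside 13.6% and 17.7% of all genes. That gene was Pgd, 6-phosphogluconate dehydrogenase, which makes NADPH, with 290 and 309 against 398 and 376 CPM (log2 fold change -0.37, SE 0.15, edgeR adjusted p = 0.151). The other NADPH-making enzyme, G6pdx, had 125 and 126 against 147 and 136 CPM (adjusted p = 0.432). The diets did not overlap for either gene, and the mice of a diet were close. Pgls, the lactonase between them, had 62.6 and 77.2 against 71.3 and 59.2 CPM (adjusted p = 0.73). In the non-oxidative branch, transketolase, Tkt, had 413 and 374 against 512 and 467 CPM (adjusted p = 0.221). Transaldolase, Taldo1, had 161 and 180 against 253 and 178 CPM (adjusted p = 0.304), with control-diet mouse 1 above the other 3, and was called lower without control-diet mouse 2 (log2 fold change -0.57, adjusted p = 0.0487). For the enzymes that act on ribulose 5-phosphate, the diets did not overlap for Rpe, by a narrow margin, and overlapped for Rpia. Rpe, the epimerase, had 33.5 and 21.7 against 18.7 and 21.3 CPM (adjusted p = 0.225), and Rpia, the isomerase, had 21.4 and 19.2 against 21.2 and 19.2 CPM (adjusted p = 0.986).

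The fructose bisphosphatases did not separate the diets. Tigar, which lowers fructose 2,6-bisphosphate, had 19.975 and 18.3 against 19.975 and 17.5 CPM (edgeR adjusted p = 0.915). Fbp1, the gluconeogenic enzyme, had 1 and 1 counts on the high-fat diet and 0 and 1 on the control diet, too few to be tested.

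Per kilobase of exon, Aldoa had the highest mean level of all 32 genes, 543 on the high-fat diet and 530 CPM per kilobase on the control diet. Pkm followed with 335 and 394, then Tpi1 with 249 and 236 and Ldha with 241 and 227. Tpi1 and Ldha did not differ beyond the spread between mice. Reads counted at pseudogenes are not part of these levels.

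Other genes of carbohydrate metabolism were called at shares near those of all genes. Of 110 further genes matched, 90 were tested, and edgeR called 8 lower (7.91% of all genes, a share close to theirs). It called 0 higher, beside 2.61% of all genes. DESeq2 called 2 higher, Epm2a and Prps2, beside 1075 of all 18422 genes. At an unadjusted edgeR p below 0.05, 8 were higher and 19 lower, beside the 13.6% and 17.7% of all genes. Their median log2 fold change was -0.07. Of the 8, 2 are glucose transporter genes, Slc2a6 with 39.1 and 34.4 against 88.3 and 66.4 CPM (adjusted p = 0.027, log2 fold change -1.07, SE 0.19) and Slc2a3 with 6.33 and 7.51 against 22.9 and 14.2 CPM (-1.42, SE 0.28, adjusted p = 0.033). For both, each high-fat-diet mouse was below each control-diet mouse. Slc2a1, the transporter known to follow hypoxia, was chosen after its values were seen and was not called, with 269 and 558 against 546 and 449 CPM (adjusted p = 0.627). Its high-fat-diet mice lay on either side of the control-diet mice, as they did for Gpi1, Pfkl, Aldoa, Tpi1 and Eno1.

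Of the glycerol 3-phosphate dehydrogenases, which link glycolysis to lipid synthesis and the respiratory chain, Gpd2 and Gpd1 fell. The related gene Gpd1l had 52.2 and 48.7 against 46.9 and 50.6 CPM, with the diets overlapping (edgeR adjusted p = 0.838). Gpd2, the mitochondrial form, had 50.02 and 50.7 against 104 and 76.5 CPM (log2 fold change -0.84, SE 0.18, edgeR adjusted p = 0.0415), and Gpd1, the cytosolic form, had 0.561 and 0.521 against 1.45 and 2.12 CPM (adjusted p = 0.0454). Pdp2, a phosphatase that activates pyruvate dehydrogenase, had 17.5 and 13.7 against 29.1 and 31.0 CPM (log2 fold change -0.95, SE 0.18, adjusted p = 0.0317).

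The other 3 had few counts, as did Gpd1 above. Hkdc1, a hexokinase-like gene, had 0.187 and 0.0782 against 3.36 and 1.59 CPM (log2 fold change -4.19, edgeR adjusted p = 0.0201). Tktl1, related to transketolase, had 0 counts in both high-fat-diet libraries and 108 and 212 on the control diet, at least 116-fold lower against a floor of 3 counts over the diet. Pck1, the gluconeogenic carboxykinase, had 0 and 0 against 35 and 13 counts, at least 17.4-fold lower on the same floor. The adjusted p was 0.00935 for Tktl1 and 0.0395 for Pck1, and the floors cover counting error only. The epithelial markers, whose sums are given above, were lower in the same libraries. Within the control diet, 9 of 11 tested epithelial markers were higher in mouse 2 than in mouse 1 (median log2 ratio 1.88), though their sum was lower. Tktl1 was also higher in control-diet mouse 2, while Hkdc1 and Pck1 were lower there. The part of the epithelial markers in these 3 values was not tested.

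Among these 8 genes, 2 calls were left without high-fat-diet mouse 1 (Tktl1 and Hkdc1) and 1 without high-fat-diet mouse 2 (Tktl1). Without control-diet mouse 1 there were again 8, with Eno4 and Fbp2 in place of Gpd2 and of Pck1, which had too few reads left to be tested, and without control-diet mouse 2, 18 genes were called lower and 6 higher. The log2 fold change of Hkdc1 moved to -4.90 without high-fat-diet mouse 1 and to -3.55 without control-diet mouse 1. Fructose 2,6-bisphosphate sets the pace of phosphofructokinase. The 4 genes of its metabolism (Pfkfb1 to Pfkfb4) held 0 calls by edgeR, beside 10.5% of all genes. By DESeq2 they held 0, beside 1075 higher and 1779 lower of all 18422 genes. At an unadjusted edgeR p below 0.05 they held 0 as well. Of 10 regulators edgeR called 0, beside 10.5% of all genes. At an unadjusted edgeR p below 0.05, 1 was higher and 4 lower (13.6% and 17.7% of all genes). DESeq2 called 0 of the 10 higher and 2 lower, beside 1075 higher and 1779 lower of all 18422 genes. Among the regulators, Hif1a, the hypoxia-inducible factor, was at 148 and 120 against 263 and 159 CPM (log2 fold change -0.65, edgeR adjusted p = 0.153). Hif1a was chosen after its values were seen.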

How the data were processed

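Poly(A) RNA of the sorted cells of 4 mice, 2 per diet, was sequenced from TruSeq Stranded mRNA libraries, per the labels. The authors deposited whole-number read counts per Ensembl gene, not normalized, with 34148682 to 37159552 counts per library. The submitters' processing notes name the builds GRCm38 and mm10 and, as tools, DESeq2 1.24.0, BWA 0.7.12, FastQC 0.11.5 and cutadapt 1.15. Which program counted the reads, on which annotation, by which strand rule and with what treatment of reads with several positions is not given in the sources used here. Of the 53379 identifiers, 53274 were paired with symbols from GENCODE M21, and 50604 carried the same version number. Coordinates are printed only for those.

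Counts were tested as deposited in R 4.3.3 with edgeR 4.0.16 (TMM scaling, filterByExpr with a minimum count of 10 and a total of 15, robust quasi-likelihood F test, diet as the only term), with Benjamini-Hochberg adjustment over the 18422 genes tested. The procedure was tested on simulated data. Each title names a separate mouse, so the spread was taken between 2 mice per diet. In edgeR's fit this spread was moderated towards a trend over all genes tested, so p-values also rest on other genes. The depth leaves low counts such as those of Fbp1 untestable. Intervals are 95% intervals of the fitted log2 fold change. The 32 genes, the lists of pathway genes and of markers, and the tests were chosen with earlier results of these data known. Values are given for every gene of the list. Of other pathway genes all called ones are named if 8 or fewer. The nearest gene whose average log2 CPM is 5 or more that ends within 30 kb before a called gene on its strand is named, as are pseudogenes that hold over 10% of the reads of a gene and its pseudogenes. Processed pseudogenes were assigned by alignment (at least 80% identity over 100 bases and 50% of the pseudogene). Alternatives were DESeq2 size factors, DESeq2's Wald test, no filter on low counts, pseudogenes added to their genes, the replicate number as a block, and leaving out each library.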

Additional observations from a re-analysis of the deposited data

How the results depend on the processing

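Precision is limited by 2 mice per diet. Of 279 values of the listed carbohydrate genes under alternatives, 249 kept their direction and their side of the threshold, 6 gained a call, 3 lost one and 21 turned in sign. Counts of genes called by edgeR ranged, when 1 library was left out, from 71 to 1934 higher (480 with all 4) and from 300 to 2534 lower (1457). For the listed genes they ranged from 0 to 1 higher and from 1 to 5 lower, and for the other pathway genes from 0 to 6 higher and from 1 to 18 lower. DESeq2's Wald test called 1075 genes higher and 1871 lower over the 20741 genes it tested. Of the other pathway genes it called 2 higher and 13 lower. With no filter on low counts, 1552 genes were higher and 2231 lower, with 1 listed gene higher (Pgam1, adjusted p = 0.0322) and Gapdh added to those lower (adjusted p = 0.026), and 4 pathway genes higher and 14 lower. The median over all genes moved to at most 0.05 on the log2 scale. Gpi1 and Pfkl turned to 0.0206 and 0.0157 without the filter, and Rpia to -0.0066 with DESeq2's size factors.

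Leaving out 1 library turned the sign of genes near 0, whose log2 fold changes ranged from -0.50 to 0.0634 for Hk2, -0.32 to 0.26 for Gpi1, -0.24 to 0.19 for Pfkl, -0.29 to 0.34 for Aldoa, -0.18 to 0.34 for Tpi1, -0.45 to 0.20 for Eno1, -0.10 to 0.29 for Ldha and -0.60 to 0.0453 for Slc16a3. The range was -0.0392 to 0.26 for Pgls, -0.0656 to 0.0997 for Rpia, -0.35 to 0.0037 for Pygb, -0.24 to 0.59 for Gys1, -0.0612 to 0.13 for Tigar and -0.28 to 0.085 for Eno1b. The cause was not tested. Pck1 had no value without control-diet mouse 1.

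With the replicate number as a block, 567 genes were higher and 1481 lower, 0 and 3 of the listed genes and 1 and 8 of the other pathway genes. The labels do not say that a number pairs mice, and the deviations of same-numbered mice correlated at -0.189 over 10312 genes. A crossed pairing, chosen after seeing the data, gave 909 higher and 1546 lower, 0 and 4 of the listed genes and 2 and 8 of the pathway genes.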
